A study of Mus musculus with 6 samples.

Results

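The genes described here are 8 receptors through which an antipsychotic drug could act on a cell: the dopamine receptor genes Drd2 and Drd4, the adrenergic receptor gene Adra1a, the histamine receptor genes Hrh1 and Hrh2, the serotonin receptor genes Htr2b and Htr7, and Tmem97, which encodes the sigma-2 receptor. They were chosen by symbol, as monoamine and sigma receptors, from the 56691 gene rows of the count tables. All 8 matched a row. The study's title concerns antipsychotics, dopamine signalling and the clearance of dead cells by macrophages, and the question here is which of these receptors the macrophages transcribed and whether thiothixene altered them. RNA sequencing measured transcripts in primary bone marrow-derived macrophages, phagocytes grown in culture from mouse marrow precursors. Marrow came from 3 mice, called a, b and c here, and each mouse gave a thiothixene library and a DMSO library, written below as thiothixene-a, DMSO-a and so on. Cultures received 2 µM thiothixene, or DMSO, the solvent, from day 6 for 24 h. The 6 cultures shared the same growth protocol, and no transgene, deletion or further agent is named in the labels, which give no strain, sex or age.

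Monoamine receptors are mostly receptors of the G protein-coupled class. Dopamine, noradrenaline, histamine and serotonin bind them from outside the cell, and the coupled G protein then raises or lowers cAMP or releases calcium. Thiothixene is a thioxanthene antipsychotic that blocks dopamine receptors and also binds histamine, adrenergic and serotonin receptors. The sigma-2 receptor is a different kind of protein, a membrane protein of the endoplasmic reticulum that binds many cationic drugs and interacts with the cholesterol transporter NPC1, and its gene is a target of the sterol-responsive factor SREBP2. Transcript level was given as CPM, read counts per 1e6 scaled by library size, and says nothing of receptor protein or drug binding.

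The RefSeq promoter table (GRCm38.p6) held windows for 7 of the 8 genes, without Adra1a. Tmem97 has transcripts in every library and known sterol control. Htr2b is an expressed serotonin receptor, and Drd2 is the dopamine receptor that antipsychotic drugs block. The windows of these 3 genes are printed, to set the base composition of detected and nearly undetected members side by side. Each is the 200 bases from 250 to 51 before the annotated start, 5′ to 3′ on the gene's strand. They lie at chr11:78550786-78550985 on the minus strand, chr1:86112031-86112230 on the minus strand and chr9:49340153-49340352 on the plus strand. Capitals mark matches to CCAAT (the CCAAT box) or GGGCGG (the GC box) on either strand.
Tmem97: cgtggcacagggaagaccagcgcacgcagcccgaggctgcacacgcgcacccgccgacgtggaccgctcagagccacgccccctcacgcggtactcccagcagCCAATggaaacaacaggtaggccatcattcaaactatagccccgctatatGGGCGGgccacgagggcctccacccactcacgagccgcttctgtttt
Htr2b: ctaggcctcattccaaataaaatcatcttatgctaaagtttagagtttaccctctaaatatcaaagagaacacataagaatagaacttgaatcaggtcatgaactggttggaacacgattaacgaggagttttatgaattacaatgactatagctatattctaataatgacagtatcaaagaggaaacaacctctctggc
Drd2: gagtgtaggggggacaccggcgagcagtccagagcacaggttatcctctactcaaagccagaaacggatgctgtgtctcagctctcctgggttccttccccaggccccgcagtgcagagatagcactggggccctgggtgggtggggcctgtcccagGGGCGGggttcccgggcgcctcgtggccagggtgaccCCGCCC
The Tmem97 window was 64.5% G and C and held 1 CCAAT box and 1 GC box. Drd2, at 67.5%, held 2 GC boxes, and Htr2b, at 34%, held neither. A CCAAT box was found in 28.4% and a GC box in 24.6% of all 32851 windows of this length. None of these 3 windows held TATAAA (9.14% of all windows), CACGTG (4.34%), GAGGAAG (8.12%, the core bound by the myeloid factor PU.1), TGACGTCA (0.828%, the cAMP response element) or TCACNCCAC (0.81%, a sterol regulatory element), searched on both strands. GC-rich windows thus stood before both an abundant and a nearly undetected transcript. A match to GAGGAAG was found before both Hrh2 starts and before 1 of 4 Hrh1 starts in the table. The windows of the Hrh2 starts overlap almost fully and hold the same match. A match to these letters is a description of the window only.

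Counts assigned to genes ran from 10472349, in DMSO-b, to 22297520. Of 8 macrophage markers 7 had at least 10 counts in every library. The exception, Itgam, which encodes the integrin CD11b, had 1 count in all, so a count near 0 in these tables does not by itself show a silent gene. Low counts were also unequal in kind. In DMSO-c 75.4% of counts between 1 and 40 were even numbers, and its most common count from 2 upward was 14, held by 261 genes against 36 at 13 and 27 at 15. In thiothixene-a 62.7% were even, and in the other 4 libraries 45.8% to 49.5%. Genes with any count numbered 16477 in DMSO-c and 18546 to 19767 in the other libraries. DMSO-b also stood apart, with correlations of log2 CPM with the other libraries of 0.825 to 0.921 across genes, and its deviation from the others ran against exon length (Spearman -0.37 across 14565 genes). Deviations followed GC content more closely, with a Spearman value of -0.62 in DMSO-c, -0.52 in thiothixene-a and 0.18 to 0.46 in the other 4 libraries. The cause of these differences was not tested.

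**Figure D1:**
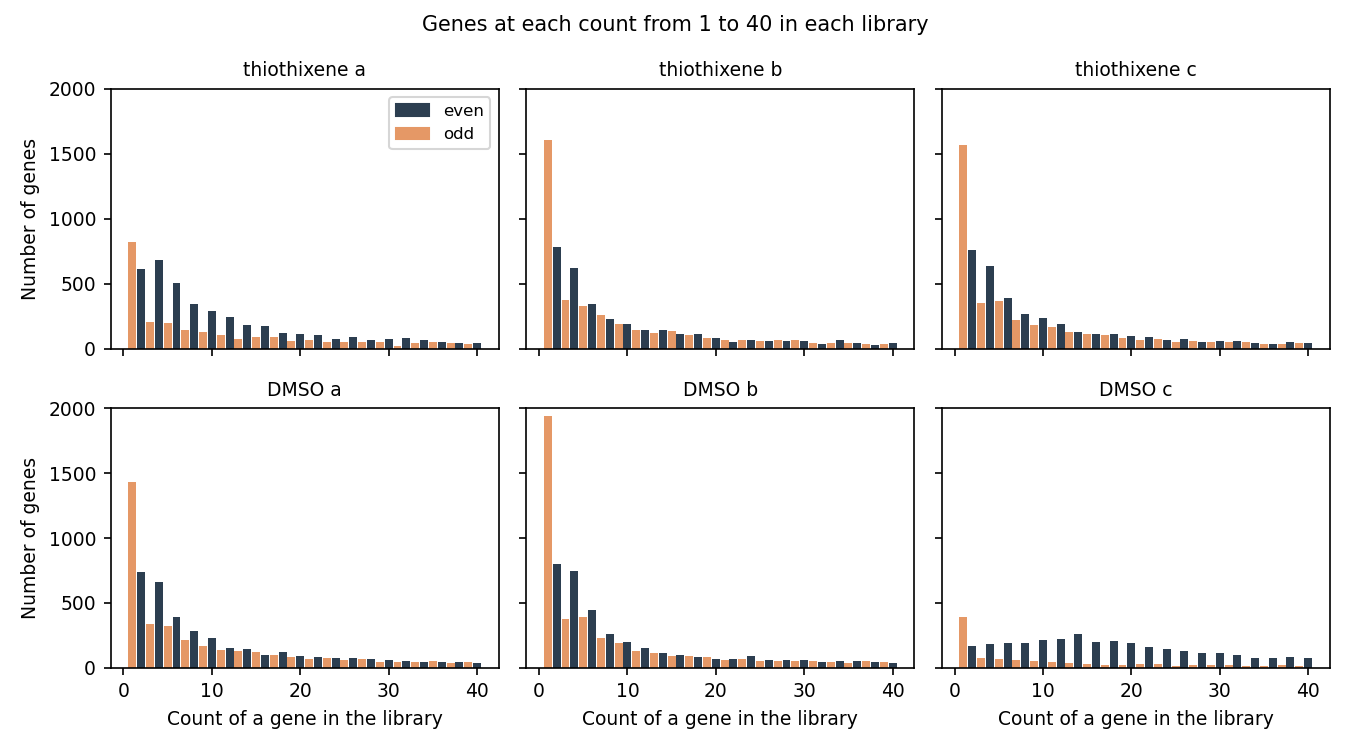
Number of genes (y axis) at each count from 1 to 40 (x axis) in each of the 6 libraries, with even counts dark and odd counts light. In DMSO-c even counts make up 75.4% and peak at 14, and in thiothixene-a they make up 62.7%.

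Dopamine receptor transcripts were at or near the limit of detection. Drd2, the receptor whose blockade defines antipsychotic drugs, had 10 counts in thiothixene-a, 1 count in DMSO-b and 0 in the other 4. Drd4, a related receptor that also lowers cAMP, had 1 count, in DMSO-b. Neither gene showed a pattern by treatment, since at least 2 libraries of each group held no count. At 0 counts the true level may be as high as 0.128 CPM for DMSO-c and 0.335 CPM for DMSO-b, covering counting error only. The limit for DMSO-b does not apply to Drd2 and Drd4, which each had 1 count there, so their limit is higher. Because of the uneven low counts, 14 counts in DMSO-c, a level of 0.597 CPM, is a more cautious limit there. It is only that library's most common count from 2 upward and not a bound on counting error, so the true level may be higher. For Drd1, Drd3 and Drd5 every library was at 0, so none of the 5 genes passed the expression filter.

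Adra1a was the most abundant monoamine receptor transcript by CPM. It encodes an alpha-1 adrenergic receptor, which releases calcium in response to noradrenaline and is best known from smooth muscle. The gene (ENSMUSG00000045875.14) lies on chromosome 14, 66635251 to 66771168, plus strand of GRCm38, and no exon of another annotated gene overlaps its exons. Adra1a measured 94.9 CPM in thiothixene-a, 80.1 in thiothixene-b and 61.9 in thiothixene-c, and 46.1, 32.1 and 47.7 CPM in DMSO-a, DMSO-b and DMSO-c. Every thiothixene library thus lay above every DMSO library, as it did for 3.88% of all 14856 tested genes, and the within-mouse difference was positive in 3 of 3 mice, at 1.04, 1.32 and 0.37 on the log2 scale. A difference above 0 in all 3 mice was seen for 7.49% of tested genes, and one below 0 in all 3, which no tested member showed, for 6.82%. Nor did any tested member have every thiothixene library below every DMSO library, as 2.77% of genes did. Means were 78.9 ± 16.5 and 42.0 ± 8.62 CPM (SD, n = 3), a log2 fold change of 0.91 (SE 0.31, 95% interval 0.21 to 1.61) and a ratio of means of 1.88. In edgeR's quasi-likelihood test the unadjusted p was 0.0165, rank 80, and the adjusted p was 1, so the difference did not pass. An unadjusted p under 0.05 was reached by 1.72% of tested genes, edgeR called 0% of them at an adjusted p of 0.05, and DESeq2 called 2 of 24529 genes (0.00815%), neither of them a member.

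The Adra1a difference kept its sign in all 21 other settings, from 0.63 to 1.17. It was called in a single one, without thiothixene-a, DMSO-b and DMSO-c (0.63, adjusted p 0.0273). That fit sets thiothixene-b and thiothixene-c against DMSO-a alone, in which treatment cannot be told apart from mouse, and the lone library is assumed to vary like the others. Without the 2 libraries of mostly even low counts the value was 0.86 (adjusted p 0.95). DMSO-b, the lowest for Adra1a, was left out in another fit, which gave 0.75 (SE 0.24, adjusted p 0.958). Offsets for GC content and length gave 0.78 (SE 0.21, adjusted p 0.91). Markers of stromal, fibroblast and smooth muscle cells, which could bring an alpha-1 receptor with them, summed to 73.8 to 368 CPM with thiothixene and 121 to 221 CPM with DMSO. In thiothixene-a, b and c the sums were 73.8, 133 and 368 CPM, and in DMSO-a, b and c 121, 211 and 221 CPM. All 8 of these markers had counts, 5 of them at least 10 in every library. The part of such cells in the Adra1a values was not tested.

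**Figure D2:**
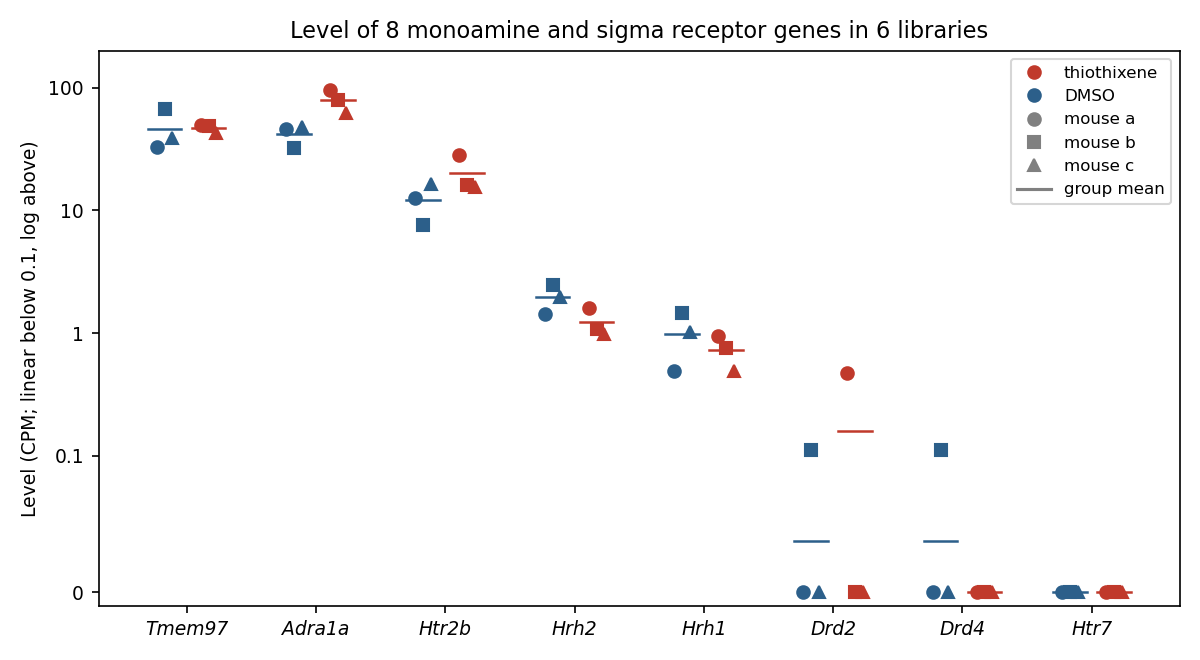
Level in CPM (y axis, linear below 0.1 and logarithmic above) of the 8 receptor genes (x axis) in DMSO and thiothixene libraries, with symbols for the 3 mice and a line at each group mean. For Adra1a the thiothixene libraries, from 61.9 CPM, lie above all DMSO libraries, which end at 47.7 CPM, while for Tmem97, Htr2b, Hrh2 and Hrh1 the groups overlap.

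Among other adrenergic receptor genes, Adra1b had 0 to 4 counts per library and Adra2a 0 to 14. Neither passed the filter, and Adra2b, Adra2c and Adrb3 had 0 counts throughout. Adra1d and Adrb1 had 2 and 6 counts in all.

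Of 4 histamine receptor genes 2, Hrh1 and Hrh2, were present at a low level in every library. Hrh1, the calcium-releasing receptor that sedating drugs block (ENSMUSG00000053004.10, chromosome 6, 114397936 to 114483296, plus strand), had 20, 14 and 10 counts with thiothixene and 11, 13 and 24 counts with DMSO for mice a, b and c. These are levels of 0.95, 0.752 and 0.493 CPM against 0.491, 1.45 and 1.02 CPM. The groups overlapped, with DMSO-b highest and DMSO-a lowest. The log2 fold change was -0.41 (SE 0.77, 95% interval -2.17 to 1.35, edgeR adjusted p 1), an interval that spans large changes in either direction. Hrh2, the cAMP-raising histamine receptor of gastric and immune cells (ENSMUSG00000034987.5, chromosome 13, 54192129 to 54236180, plus strand), had 34, 20 and 20 counts against 32, 22 and 46 counts, or 1.62, 1.07 and 0.986 CPM against 1.43, 2.46 and 1.96 CPM. Its highest thiothixene library exceeded its lowest DMSO library, both from mouse a. The log2 fold change was -0.66 (SE 0.60, 95% interval -2.04 to 0.72, edgeR adjusted p 1), and thiothixene was the lower library in 2 of 3 mice. An antisense gene, Gm16578, shares 2.44% of the Hrh2 exon bases.

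The summed level of neutrophil and granulocyte precursor markers was 255.2 to 308.5 CPM with thiothixene and 308.7 to 669.3 CPM with DMSO, and the highest sum was in DMSO-b, where Hrh1 and Hrh2 were highest. Among the thiothixene libraries the order was opposite, with the highest marker sum, 308.5 CPM, in thiothixene-c, where both receptors were lowest. All 8 of these markers had counts, 7 of them at least 10 in every library. DMSO-b was not highest for this list alone. It also had the highest sums of macrophage (1.704e+04 CPM), B cell (7.148), erythroid and megakaryocyte (19.1) and neuronal (1.452) markers. It had the lowest sums of mast cell and basophil (2.122 CPM) and dendritic cell (0.6702) markers, and lay between for the remaining lists. Without DMSO-b the log2 fold change of Hrh1 was -0.05 (SE 0.89), so most of its difference went with that library, and that of Hrh2 was -0.47 (SE 0.64). Without mouse a they were -0.97 and -1.09. The part of neutrophils and granulocyte precursors in the histamine receptor values was not tested. In bulk RNA, fewer cells of a type and less RNA per cell cannot be told apart. Mast cell and basophil markers summed to 2.12 to 4.24 CPM over the 6 libraries, and Fcer1a, Cma1 and Tpsb2 were at 0. Hrh3 had 0 counts, and Hrh4 had 4 counts in thiothixene-a and thiothixene-b and 1 in DMSO-a.

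Of 14 serotonin receptor genes, Htr2b and Htr2a were the ones abundant enough to be tested. Htr2b, a calcium-releasing serotonin receptor known from heart valve, gut and macrophages, measured 28.4 CPM in thiothixene-a, 16.2 in thiothixene-b and 15.5 in thiothixene-c, and 12.6, 7.60 and 16.5 CPM in DMSO-a, DMSO-b and DMSO-c. DMSO-c lay above 2 thiothixene libraries, so the groups overlapped. Means were 20.0 ± 7.26 and 12.2 ± 4.45 CPM (SD, n = 3), and the fitted log2 difference was 0.71 (SE 0.41, 95% interval -0.24 to 1.65), with thiothixene higher in 2 of 3 mice and an edgeR adjusted p of 1. Without thiothixene-a, its highest, the value was 0.38, without DMSO-c it was 0.98, and without both libraries of mouse c it was 1.14, all uncalled.

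Htr2b (ENSMUSG00000026228.7, chromosome 1, 86099026 to 86111970, minus strand of GRCm38) lies within the span of the proteasome gene Psmd1 on the opposite strand, and 252 of its 2131 exon bases, 11.8%, are shared. Psmd1 reached 275, 185 and 181 CPM under thiothixene in mice a, b and c, and 175, 124 and 308 CPM under DMSO (log2 fold change 0.08, SE 0.39). Strand use in counting is not given in the sources used here, so reads from the shared bases cannot be told apart. The other Htr2b exon bases lie in introns of Psmd1, where unspliced Psmd1 RNA would also count as Htr2b if strand was ignored. The Htr2b level is therefore uncertain beyond the shared bases, and the part of Psmd1 RNA in it was not tested. Htr2a, the related receptor that atypical antipsychotics block, averaged 7.47 ± 1.85 CPM under thiothixene and 5.51 ± 2.80 CPM under DMSO (SD, n = 3), with a fitted log2 difference of 0.43 (SE 0.49, edgeR adjusted p 1). This was 0.11 without DMSO-b, 0.21 without thiothixene-a or without mouse a, 0.18 without mouse b, 0.83 without DMSO-c and 0.96 without mouse c. Htr7, a cAMP-raising serotonin receptor, had 0 counts in all 6 libraries. Htr1b had 19 counts in thiothixene-c and 0 to 4 elsewhere, and Htr5b had 28 counts in DMSO-c and 0 elsewhere. Drd2, too, had nearly all of its counts in a single library.

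**Figure D3:**
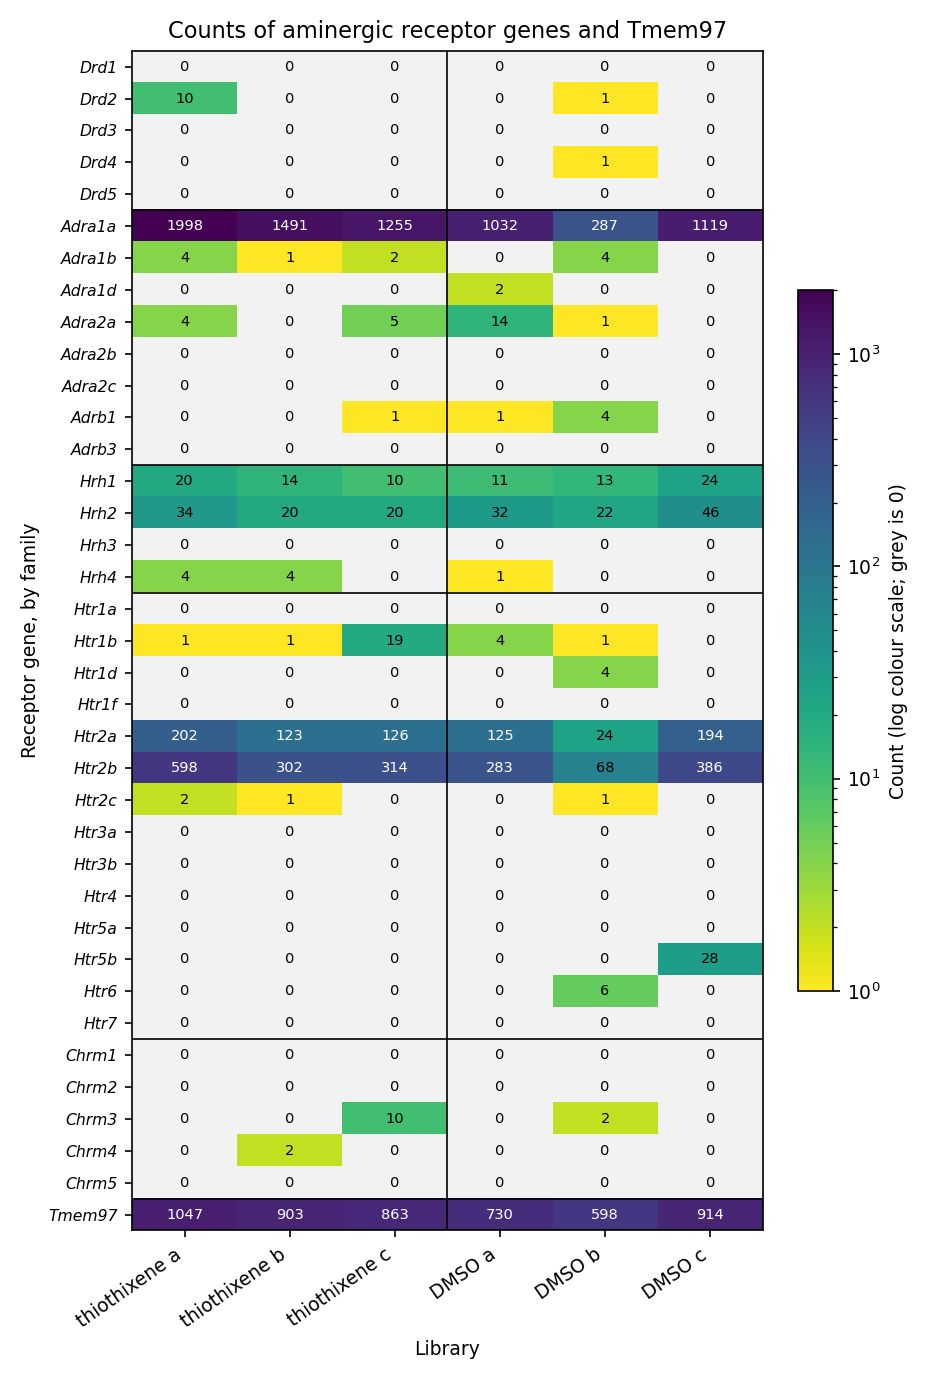
Raw counts of 36 aminergic receptor genes and Tmem97 (rows, by family) in the 6 libraries (columns), coloured on a log scale with grey for 0. Adra1a, Hrh1, Hrh2, Htr2a and Htr2b have counts in every library, and 17 of the 36 have none in any.

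Across the 37 dopamine, adrenergic, histamine, serotonin and muscarinic receptor genes, 17 had 0 counts in all libraries, 25 had fewer than 10 counts in total and 6 were abundant enough to be tested. Of these 6, 3 had a log2 fold change above 0 and 3 below, and edgeR called 0 in either direction. Their median was 0.11, against -0.04 over all tested genes. Muscarinic receptors, a further off-target class of antipsychotic drugs, were nearly absent, with Chrm3 at 10 counts in thiothixene-c and 2 in DMSO-b. Many of these receptors are studied in neurons, and 5 neuronal markers summed to 0 to 1.45 CPM.

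Transcripts of the sigma-2 receptor were abundant. Tmem97 (ENSMUSG00000037278.10, chromosome 11, 78541817 to 78550777, minus strand of GRCm38) measured 49.7 CPM in thiothixene-a, 48.5 in thiothixene-b and 42.6 in thiothixene-c, and 32.6, 66.8 and 39.0 CPM in DMSO-a, DMSO-b and DMSO-c. The thiothixene libraries lay close together between DMSO-b, the highest, and DMSO-a and DMSO-c. Means were 46.9 ± 3.83 and 46.1 ± 18.2 CPM (SD, n = 3), and the fitted log2 difference was 0.03 (SE 0.34, 95% interval -0.74 to 0.80, edgeR adjusted p 1). Its sign turned when single libraries were left out. Without DMSO-b it was 0.39 (SE 0.21, adjusted p 0.958), and without DMSO-a it was -0.17.

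Tmem97 could be set beside 14 genes that act with the sigma-2 receptor or neighbour it in sterol control, a list drawn up with earlier results of these data known. All 14 were tested. Of these, 11 lay above 0 and 3 below, with a median of 0.46, and edgeR called 0 of them. Over all 14856 tested genes 6735 lay above 0 and 8121 below, with a median of -0.04. In 5 of 14 every thiothixene library lay above every DMSO library, against 3.88% of all tested genes. Because the list was drawn up with earlier results known, these counts are description and no test against all genes. Npc1, the lysosomal cholesterol transporter, averaged 587 ± 14.96 CPM under thiothixene and 418 ± 124 CPM under DMSO (SD, n = 3). Npc2, its soluble partner, had a log2 fold change of -0.15 (SE 0.46), and Srebf2, which encodes SREBP2, 0.40 (SE 0.33). The Srebf2 value was 0.19 without DMSO-c, 0.13 without mouse c and 0.76 without mouse a. That of Npc2 turned to 0.54 without DMSO-b, and that of Npc1, 0.49 (SE 0.31), was 0.26 without it. Lss, a cholesterol synthesis enzyme named after its values were seen, measured 36.9 ± 6.38 against 18.35 ± 7.81 CPM (SD, n = 3), a log2 fold change of 1.01 (SE 0.38), or 1.52 without mouse a. In the fit without the 3 libraries named for Adra1a, with its lone DMSO library, Lss (adjusted p 0.0226) and Npc2, there at 0.43 (adjusted p 0.00781), were called, and Tmem97, at 0.49, was not (adjusted p 0.0622).

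Levels between genes were compared as CPM per kilobase of annotated exon. In DMSO the order was Tmem97 at 33.6 ± 13.2, Htr2b at 5.74 ± 2.09, Adra1a at 4.81 ± 0.988, Hrh2 at 0.329 ± 0.0866 and Hrh1 at 0.222 ± 0.108 CPM per kb (SD, n = 3). With thiothixene it was the same, at 34.1 ± 2.78, 9.40 ± 3.41, 9.05 ± 1.89, 0.206 ± 0.0574 and 0.164 ± 0.0515 CPM per kb. Htr2b and Adra1a did not differ beyond their spread in either group, nor did Hrh2 and Hrh1. Tmem97 stood above, and the histamine receptors below, the other detected members by more than the spread. Annotated exon length counts every isoform, which lowers the value of a gene with several.

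Over the 6 libraries Adra1a and Htr2b ran alike, with a Pearson r of 0.90 between their log2 CPM values. Both were highest in thiothixene-a and lowest in DMSO-b. Hrh1 ran with Hrh2 (r = 0.84) and Tmem97 (r = 0.76), and these 3 were highest in DMSO-b. The tested genes most like Adra1a were Slc25a13 (r = 0.998), Stx3 (0.995) and Dach1 (0.993), and 36 genes exceeded 0.95. For Htr2b they were 4930551O13Rik, Atp6ap2 and Zfp54 (0.987 to 0.990), and for Tmem97 Cyb5a, Gcsh and Chchd3 (0.990 to 0.993). For Hrh1 they were Phax, Gm13680 and Stx8 (0.990 to 0.996), and for Hrh2 Mesd, Tsg101 and Wdsub1 (0.989 to 0.991). These values describe 6 points that share library depth and composition.

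**Figure D4:**
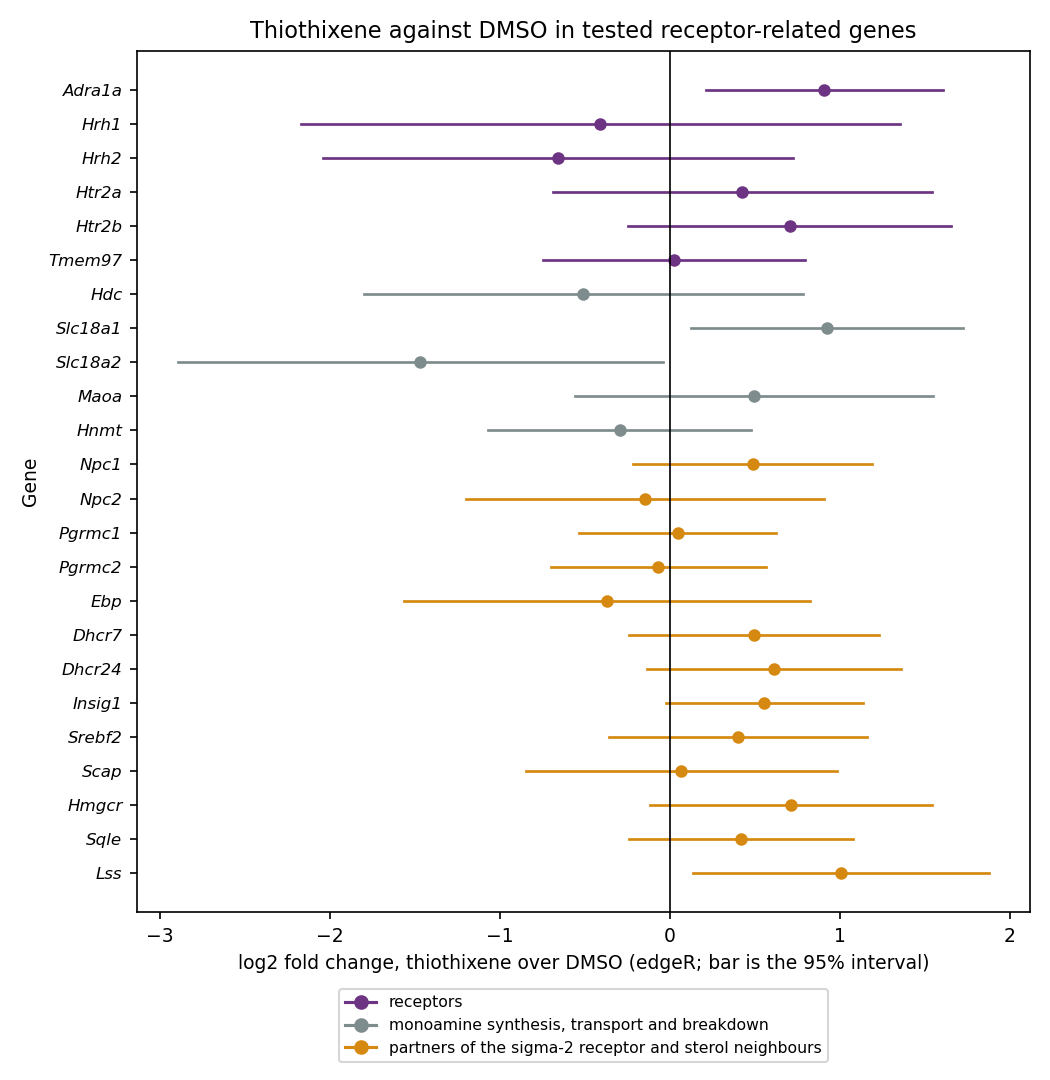
Log2 fold change of thiothixene over DMSO (x axis, with 95% intervals from edgeR) for the tested receptor genes shown, monoamine handling genes and sigma-2 or sterol genes (y axis). The intervals of Adra1a, Slc18a1, Slc18a2 and Lss leave out 0 before adjustment, and none of these genes passed after it.

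Genes that make, move and break down monoamines gave the setting in which these receptors stood. Of 21 such genes 9 had 0 counts in all libraries, among them Th, the first enzyme of dopamine synthesis, and Tph1, that of serotonin synthesis outside the brain. Of 6 tested genes 2 lay above 0 and 4 below, with a median of -0.33, and edgeR called 0. Slc18a1, a vesicular monoamine transporter of endocrine cells, reached 32.4, 48.0 and 46.7 CPM under thiothixene in mice a, b and c, and 31.2, 19.2 and 16.5 CPM under DMSO. Every thiothixene library lay above every DMSO library, although those of mouse a nearly met (log2 fold change 0.92, SE 0.35, edgeR adjusted p 1). Without mouse a the value was 1.41, and in the fit with a lone DMSO library it was 0.61 and called (adjusted p 0.0151). The related transporter gene Slc18a2, named after its values were seen, measured 2.45 ± 0.822 against 6.76 ± 5.24 CPM (SD, n = 3), a log2 fold change of -1.47 (SE 0.62), and -0.61 without DMSO-c. Hnmt, which methylates histamine, was at -0.29 (SE 0.34), at -0.53 without thiothixene-a, -0.66 without mouse a, -0.14 without thiothixene-c, -0.17 without DMSO-c and -0.02 without mouse c.

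Downstream of the receptors, 30 of 37 genes for G proteins, adenylyl cyclases, phospholipases and receptor regulators were tested. Log2 fold changes were above 0 for 14 and below 0 for 16, with a median of -0.03, and edgeR called 0. Gnai2, the inhibitory G protein of leukocytes, measured 809 ± 157 against 1049 ± 537 CPM (SD, n = 3). Gnas, the cAMP-raising G protein, measured 558 ± 16.0 against 575 ± 144 CPM, and Grk2, a kinase that silences active receptors, 302 ± 48.7 against 348 ± 134 CPM. For these 3 genes the difference between groups was smaller than the spread between DMSO libraries.

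**Figure D5:**
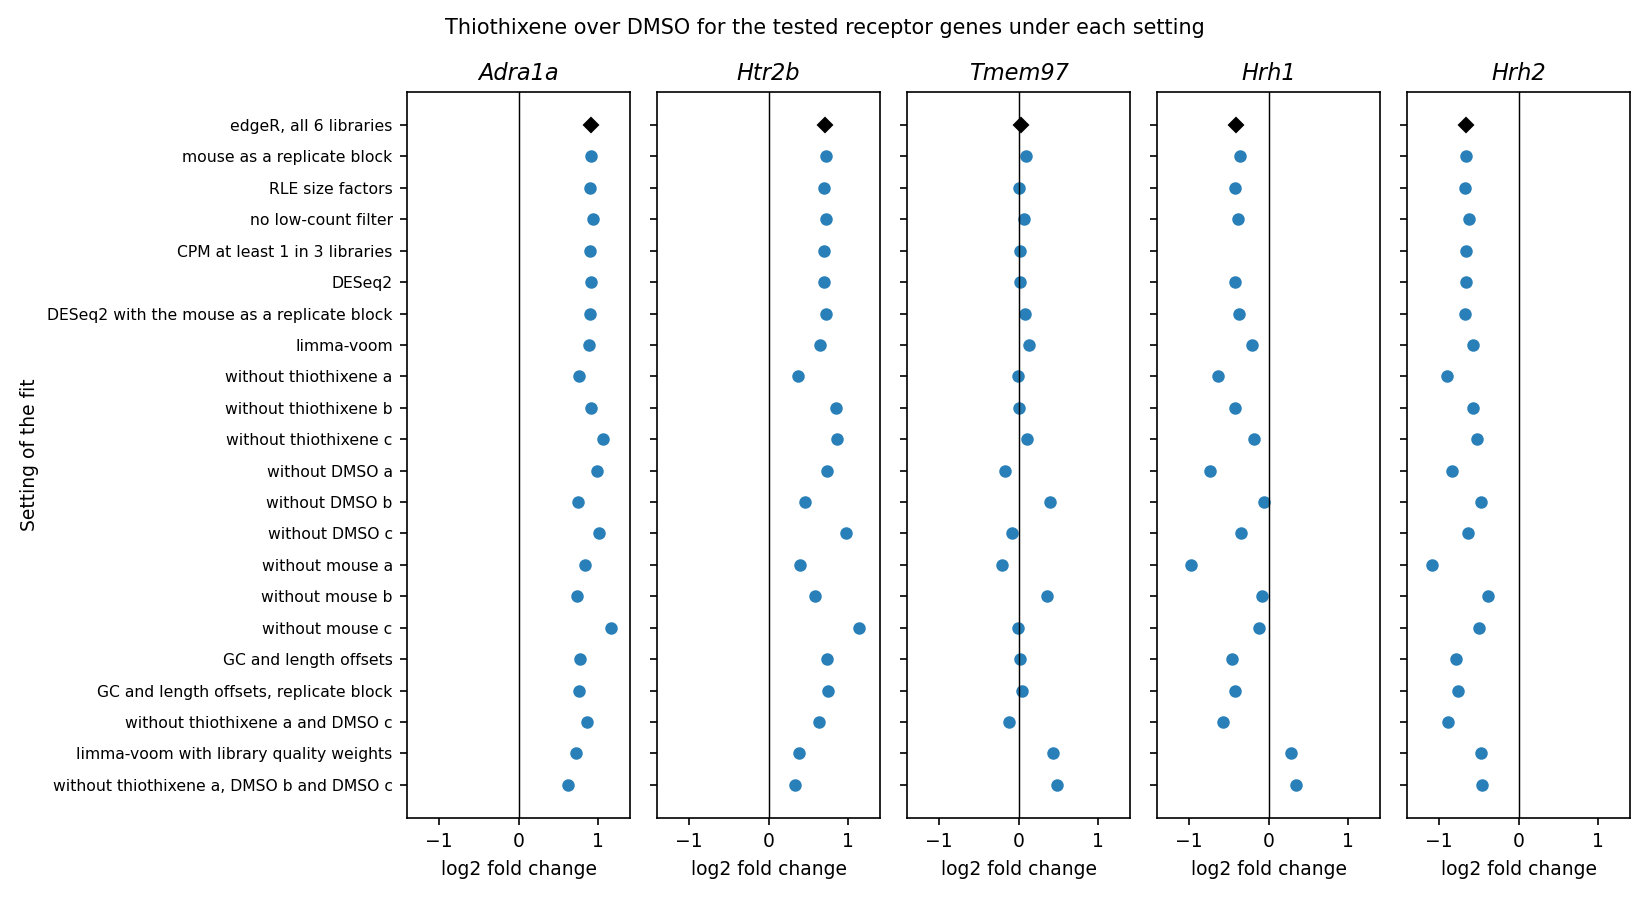
Log2 fold change of thiothixene over DMSO (x axes) for the 5 tested receptor genes (panels) under each setting of the fit (y axis), with a diamond for edgeR on all 6 libraries. Adra1a, Htr2b and Hrh2 keep their side of 0 in every setting, while Tmem97 and Hrh1 cross it.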

How the data were processed

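RNA from 3 thiothixene and 3 DMSO cultures was sequenced as paired ends, per the labels. The authors deposited raw counts per gene for each library, with 5 rows that name no gene, left out here (reads outside any gene were 43.07% to 44.35% of all rows). Per the submitters' processing notes, which give no roles, the tools were STAR 2.7.11b, DESeq2 1.44, FastQC 0.11.8 and Trim Galore 0.6.10, and the build mm10. Not given in the sources used here are the counting program, its strand setting and its annotation. Symbols, exon lengths and positions came from GENCODE M21 (GRCm38), which matched 52073 of 56691 identifiers without version and 35 with it.

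Groups were compared in R 4.3.3 by the robust quasi-likelihood test of edgeR 4.0.16, after filterByExpr (14856 genes left) and TMM scaling, with a treatment term and no other, and p-values were adjusted by Benjamini-Hochberg over all tested genes at 0.05. SE is the absolute log2 fold change over the square root of F. CPM uses the TMM library sizes, and log2 CPM a prior count of 2. Alternatives were the mouse as a block, RLE factors, other filters, DESeq2 1.42.0, limma-voom (limma 3.58.1), per-library offsets from splines (5 degrees of freedom each) on GC content and exon length, and leaving out libraries or mice. Fits without the 2 libraries of mostly even low counts, without 3 libraries that stand apart and with library quality weights were chosen after the data were seen. Members, lists and rules were chosen with earlier results of these data known. Named genes were all members, every receptor with at least 10 counts in total, the 3 tested genes of highest CPM per list and the 3 genes most correlated with each tested member. Values of some named genes are not reported here, and counts over lists include them. No member below the filter had counts in 3 libraries, so the permutation test planned for such members was not needed.

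Sample titles name mouse a, b or c, which pairs the libraries by animal. Deviations from group means correlated at -0.131, 0.318 and -0.301 within mice a, b and c, and the highest of all 9 correlations, 0.486, was between thiothixene-a and DMSO-c, from different mice. Per the labels, each replicate is a separate mouse. On simulated counts for 14856 genes edgeR called 1 of the 50 genes given a log2 fold of 1. It called 22, 40 and 44 of the 50 given 2, 3 and 4, beside 6 unaltered genes. These counts were drawn for each gene independently, without the library differences in GC content, exon length and even counts. Recovery in the real libraries may therefore differ.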

Additional observations from a re-analysis of the deposited data

How the results depend on the processing

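The members' calls under edgeR were the same with RLE factors, with the stricter filter (which removed Hrh1), with GC and length offsets, in each fit without 1 library or mouse and without the 2 libraries of mostly even low counts, where 0 genes were called. The replicate block, which uses the mouse letters as pairs, also gave 0 called genes and Adra1a at 0.91 (adjusted p 1), and limma-voom gave 0. Other fits called 1 gene (no low-count filter), 2 (DESeq2), 1 (DESeq2 with the replicate block), 25 (quality weights) and 1105 (without 3 libraries, 636 higher and 469 lower). Adra1a, in the last, was the sole member among them. The number of members present in every library was 5 from 1, 3 or 10 counts.

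Over 16 named genes 310 values kept their sign and stayed uncalled, and 22 changed sign. No gene could stop being called, since edgeR on all 6 libraries called 0 of 14856 genes. The cause of the sign changes was not tested. Calls were gained in the fit without 3 libraries by Adra1a, Slc18a1, Lss and Npc2, the last with a change of sign (adjusted p 0.00781). Leaving out 1 library or mouse gave ranges of -0.21 to 0.39 for Tmem97, -0.76 to 0.091 for Gnai2, -0.16 to 0.18 for Gnas, -0.52 to 0.078 for Grk2 and -0.57 to 0.54 for Npc2. Ranges of genes that kept their sign were 0.73 to 1.17 for Adra1a, 0.38 to 1.14 for Htr2b, 0.11 to 0.96 for Htr2a, -0.97 to -0.05 for Hrh1, -1.09 to -0.39 for Hrh2, 0.68 to 1.41 for Slc18a1, -1.89 to -0.61 for Slc18a2, -0.66 to -0.02 for Hnmt, 0.26 to 0.64 for Npc1, 0.13 to 0.76 for Srebf2 and 0.72 to 1.52 for Lss. Tmem97 was at -0.12 without the 2 libraries of mostly even counts. With quality weights Hrh1 was at 0.29, Gnas at 0.10 and Npc2 at 0.32, and without 3 libraries they were at 0.34, 0.12 and 0.43. Npc2 was at 0.038 with the replicate block, 0.033 in DESeq2 with it and 0.057 in limma-voom. Low and uneven counts limit what can be said of Hrh1, Hrh2 and the dopamine receptors.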
